A study of Arabidopsis thaliana with 4 samples.

Results

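The data described here compare 2 genotypes of Arabidopsis thaliana in roots that received no aluminium (Al): 1 library whose genotype label reads arf10/arf16 double mutant (arf10/16-labelled below), against 1 library of wild type. They are 2 of the 4 libraries of the study. Both genotypes carry the label Col-0 for their genetic background. Seedlings spent 6 days in a 2% strength modified MGRL nutrient solution at pH 5.0, then 24 h in the same acidic solution with 0 µM or 10 µM AlCl3, and total RNA of their roots was sequenced. About 500 seedlings were used, without a number per library, and the labels name neither the alleles of the line nor any agent other than AlCl3. The 4 groups are therefore arf10/16-labelled roots and wild-type roots at 0 µM Al, and the same genotypes at 10 µM Al, with 1 library in each. Counting all transcript models of a locus together, 22284 loci had a row, and the 13264 loci with at least 20 reads over both libraries at 0 µM Al are called measured below. With 1 library a side no difference between them can be tested, so a locus is called higher or lower by size alone, where its ratio of CPM, that is reads scaled to the library total, was at least 2-fold and the exact 95% counting interval of that ratio, given in brackets after a fold, excluded 1. These intervals cover counting error only, not differences between plants, cultures or extractions.

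ARF10 and ARF16 are auxin response factors, transcription factors that bind auxin-response elements in promoters, and both belong to the group of these factors that is regarded as repressing its targets. With the related ARF17 they are targets of the microRNA miR160, which directs cleavage of their transcripts and is known for restricting them in the root cap. Roots also hold a chemical and receptor-based defence: surface receptors sense microbial patterns and the plant's own danger peptides, jasmonate and salicylic acid relay wounding and infection, and tryptophan-derived indole glucosinolates and camalexin are made as defence compounds.

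ARF10 and ARF16 check the genotype label, and ARF10 went against it. ARF10 had 3820 reads in arf10/16-labelled roots and 110 in wild type, 35.4-fold (29.3 to 43.2) higher. It ranked first of all measured loci by the near bound of its interval. With 10 µM Al it had 2640 reads in arf10/16-labelled roots and 142 in wild type. ARF16 had 71 reads in arf10/16-labelled roots and 159 in wild type, 2.2-fold (1.65 to 2.95) lower. Under TMM scaling, an alternative to library totals used below, ARF16 fell just short of the 2-fold rule. ARF17 had 47 reads in arf10/16-labelled roots and 32 in wild type, a ratio of 1.5-fold (0.936 to 2.43) whose interval includes 1. The ARF16 value has the direction of the label and the ARF10 value the opposite one. The groups are therefore called by their labels throughout, and every direction below rests on those labels. Gene-level counts do not tell which stretch of the ARF10 transcript was read, so they do not show whether an intact transcript was made.

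The miR160 site is the sequence feature that these 3 genes share, and it is shown here to place the opposite values of ARF10 and ARF16 beside their common regulator. The mature miR160a and the best match to its complement in each coding sequence were read from the RefSeq genome of build TAIR10.1, where capitals mark bases 2 to 8 of the microRNA (its seed) and the bases that face them in the sites, 5′ to 3′.
miR160a: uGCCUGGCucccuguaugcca
ARF10: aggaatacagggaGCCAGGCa
ARF16: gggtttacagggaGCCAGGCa
ARF17: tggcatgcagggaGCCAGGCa
The miRNA lies at chr2:16340282-16340302 (plus strand). The ARF10 site lies at chr2:12115741-12115761 (plus strand, coding exon 2 of 4), the ARF16 site at chr4:14704141-14704161 (minus strand, coding exon 2 of 3) and the ARF17 site at chr1:29274189-29274209 (plus strand, coding exon 2 of 2). All 3 sites matched the seed with 0 mismatches. Over the whole site of 21 bases, ARF10 had 2 mismatches to the complement, ARF16 had 3 and ARF17 had 1. The match is a description of the reference sequence, not of the plants sequenced.

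Among the loci past the 2-fold rule, more were higher than lower. Of the 13264 measured loci, 940 (7.09%) were higher in arf10/16-labelled roots than in wild type and 602 (4.54%) were lower, and 11722 were neither. The higher set also reached wider ratios: 262 of its loci were at least 4-fold higher, while 45 of the lower set were at least 4-fold lower. Together the higher loci took 12.3% of all reads in arf10/16-labelled roots and 3.86% in wild type, and the lower loci 1.12% in arf10/16-labelled roots and 2.77% in wild type. The median log2 ratio of all measured loci was -0.14, and list medians below are read beside it. By library totals 60.5% of all measured loci had a ratio below 1, and by TMM 50.0%. Scaling by TMM factors instead of library totals moved every log2 ratio up by 0.14 and gave 1141 higher loci (8.6%) and 371 lower ones (2.8%). The higher loci made up 61.0% of those past the rule by library totals and 75.5% by TMM.

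**Figure D1:**
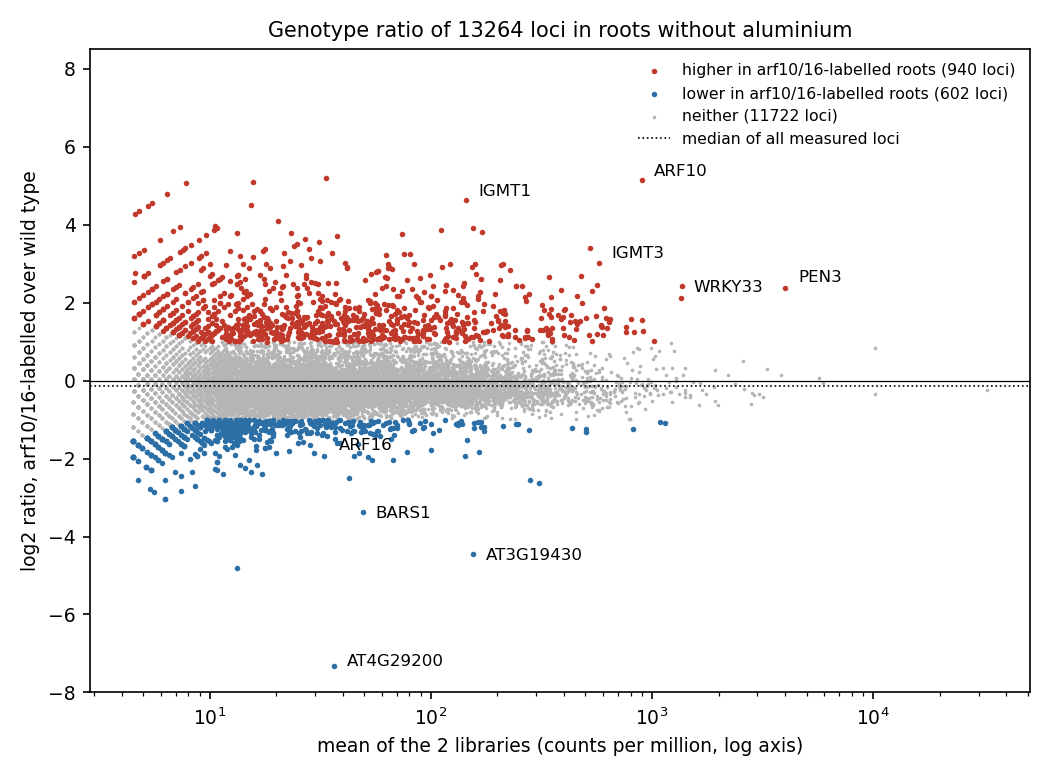
Each point is 1 of the 13264 measured loci, with the mean CPM of both libraries at 0 µM Al on a log axis against the log2 ratio of arf10/16-labelled roots over wild type. The 940 loci in red were higher and the 602 in blue lower by the 2-fold rule, ARF10 lies at 5.15 and ARF16 at -1.13, and the dotted line is the median of all measured loci.

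The 4 libraries hold 2080348 to 2280894 reads, of which 2188782 are from arf10/16-labelled roots at 0 µM Al and 2232186 from wild type at 0 µM Al. Of the cell type markers that were measured 1 passed the rule, the mitotic cyclin gene CYCB1;1, which had 16 reads in arf10/16-labelled roots and 45 in wild type. Summed root hair markers came to 625 CPM in arf10/16-labelled roots and 608 CPM in wild type, and endodermis markers to 366 CPM in arf10/16-labelled roots and 472 CPM in wild type. Root cap markers came to 27.0 CPM in arf10/16-labelled roots and 43.0 CPM in wild type, none of them past the rule alone, with SMB at 3 reads in both. The 6 markers of green shoot tissue, all under 20 reads in sum, summed to 24 reads in arf10/16-labelled roots and 14 in wild type, with RBCS3B at 0 in both. Fewer cells of a type and less RNA per cell cannot be told apart in whole roots. UBQ10, often used as a reference gene, had 0 reads in arf10/16-labelled roots and 1 in wild type, so a low count in this table does not show that a gene is silent.

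Indole glucosinolate genes had many higher and no lower members in arf10/16-labelled roots, with the widest ratios among those that modify the finished compound. Indole glucosinolates are made from tryptophan, and their breakdown after attack releases defence compounds. Of 13 genes of modification, breakdown and export, all measured, 7 were higher and 0 lower, with a median log2 ratio of 1.54. Of 8 measured genes of core synthesis 3 were higher and 0 lower, with a median of 0.80. MYB51, a MYB factor that activates the pathway, had 955 reads in arf10/16-labelled roots and 182 in wild type, 5.35-fold (4.56 to 6.31) higher. MYB122, a further such factor, had 55 reads in arf10/16-labelled roots and 12 in wild type, 4.67-fold (2.47 to 9.59) higher. MYB34, the third, had 111 reads in arf10/16-labelled roots and 135 in wild type and did not pass the rule. So 2 of the 3 pathway activators stood well above wild type and 1 did not.

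Core synthesis differed by smaller factors. CYP79B2 and CYP79B3, which turn tryptophan into indole-3-acetaldoxime, had 1183 and 713 reads in arf10/16-labelled roots against 666 and 436 in wild type, both under 2-fold. The next enzyme, CYP83B1, had 2815 reads in arf10/16-labelled roots and 1179 in wild type, 2.44-fold (2.27 to 2.61) higher. GGP1, a peptidase that trims the glutathione conjugate, had 1249 reads in arf10/16-labelled roots and 498 in wild type, 2.56-fold (2.30 to 2.84) higher, and the sulfotransferase gene SOT16 had 1031 reads in arf10/16-labelled roots and 467 in wild type, 2.25-fold (2.02 to 2.52) higher. The glutathione transferase genes GSTF9 and GSTF10 had 369 and 3183 reads in arf10/16-labelled roots against 429 and 2948 in wild type and did not pass. All enzymes of this list that passed had ratios between 2- and 3-fold.

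The steps that decorate indole glucosinolates showed the widest ratios. CYP81F2, the hydroxylase that opens the route to 4-methoxy-indole glucosinolate, had 694 reads in arf10/16-labelled roots and 50 in wild type, 14.2-fold (10.6 to 19.3) higher. The indole glucosinolate methyltransferases IGMT1 to IGMT4, a tandem group of near-identical genes whose reads may be shared between copies, were all higher. IGMT1 had 605 reads in arf10/16-labelled roots and 25 in wild type, 24.7-fold (16.6 to 38.4) higher. IGMT2 had 2104 reads in arf10/16-labelled roots and 204 in wild type, 10.5-fold (9.11 to 12.2) higher. IGMT3 had 2245 reads in arf10/16-labelled roots and 281 in wild type, 8.15-fold (7.19 to 9.26) higher. IGMT2 and IGMT3 hold most of the reads of the group in both libraries. IGMT4 had 54 reads in arf10/16-labelled roots and 4 in wild type, 13.8-fold (5.08 to 52.3) higher. Related hydroxylase genes did not pass the rule: CYP81F3 had 304 reads in arf10/16-labelled roots and 158 in wild type, 1.96-fold (1.61 to 2.39) higher and just under the rule, and CYP81F4 had 108 reads in arf10/16-labelled roots and 119 in wild type. Downstream, the atypical myrosinase gene PEN2 had 2927 reads in arf10/16-labelled roots and 1024 in wild type, 2.92-fold (2.71 to 3.13) higher. PEN3, the ABC transporter that exports products of this route at sites of attack, had 14736 reads in arf10/16-labelled roots and 2904 in wild type, 5.17-fold (4.97 to 5.39) higher. Higher members were thus found among the genes of synthesis, methylation, hydrolysis and export, though not all members passed. PYK10, the main beta-glucosidase of root ER bodies, had 5028 reads in arf10/16-labelled roots and 5493 in wild type and did not pass.

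Aliphatic glucosinolate genes, which use methionine in place of tryptophan, pointed the other way. Of 9 measured members (of 14 listed, 4 had no row and 1 fell under the filter of 20 reads) 0 were higher and 2 were lower (22.2% against 4.54% of all measured loci). Under TMM scaling 1 was lower, beside 2.8% of all measured loci. A ratio below 1 was found for 7 of the 9, and for 60.5% of all measured loci. The list median log2 ratio was -0.84 (-0.70 under TMM scaling). CYP83A1, the counterpart of CYP83B1, had 356 reads in arf10/16-labelled roots and 881 in wild type, 2.43-fold (2.14 to 2.75) lower. CYP79F2, which forms the aldoximes, had 220 reads in arf10/16-labelled roots and 476 in wild type, 2.12-fold (1.8 to 2.5) lower. MAM1, of chain elongation, had 307 reads in arf10/16-labelled roots and 573 in wild type (1.83-fold lower, interval 1.59 to 2.11), BCAT4 504 reads in arf10/16-labelled roots and 944 in wild type (1.84-fold lower, interval 1.65 to 2.05) and the activator gene MYB28 23 reads in arf10/16-labelled roots and 42 in wild type (1.79-fold lower, interval 1.05 to 3.12), all short of 2-fold. SOT17, a sulfotransferase gene, had 137 reads in arf10/16-labelled roots and 130 in wild type, a ratio near 1. The CYP79 and CYP83 steps of the parallel routes therefore sat on opposite sides of wild type.

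Of 3 measured camalexin genes (of 5 listed, 2 fell under the filter of 20 reads) 2 were higher and 0 lower. GSTF6, a glutathione transferase gene that may share reads with its close copy GSTF7, had 83 reads in arf10/16-labelled roots and 27 in wild type, 3.13-fold (2.01 to 5.04) higher. CYP71A12, which also draws on indole-3-acetaldoxime, had 738 reads in arf10/16-labelled roots and 365 in wild type, 2.06-fold (1.82 to 2.34) higher, while PAD3, which makes camalexin itself, had 30 reads in arf10/16-labelled roots and 50 in wild type and did not pass. Of 6 measured tryptophan synthesis genes (of 10 listed, 1 had no row and 3 fell under the filter of 20 reads) 1 passed (2 under TMM scaling): ASB1, an anthranilate synthase subunit, with 19 reads in arf10/16-labelled roots and 5 in wild type (3.88-fold higher, interval 1.40 to 13.3). TSB1, the tryptophan synthase beta subunit, had 1175 reads in arf10/16-labelled roots and 633 in wild type, 1.89-fold (1.72 to 2.09) higher and short of the rule.

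**Figure D2:**
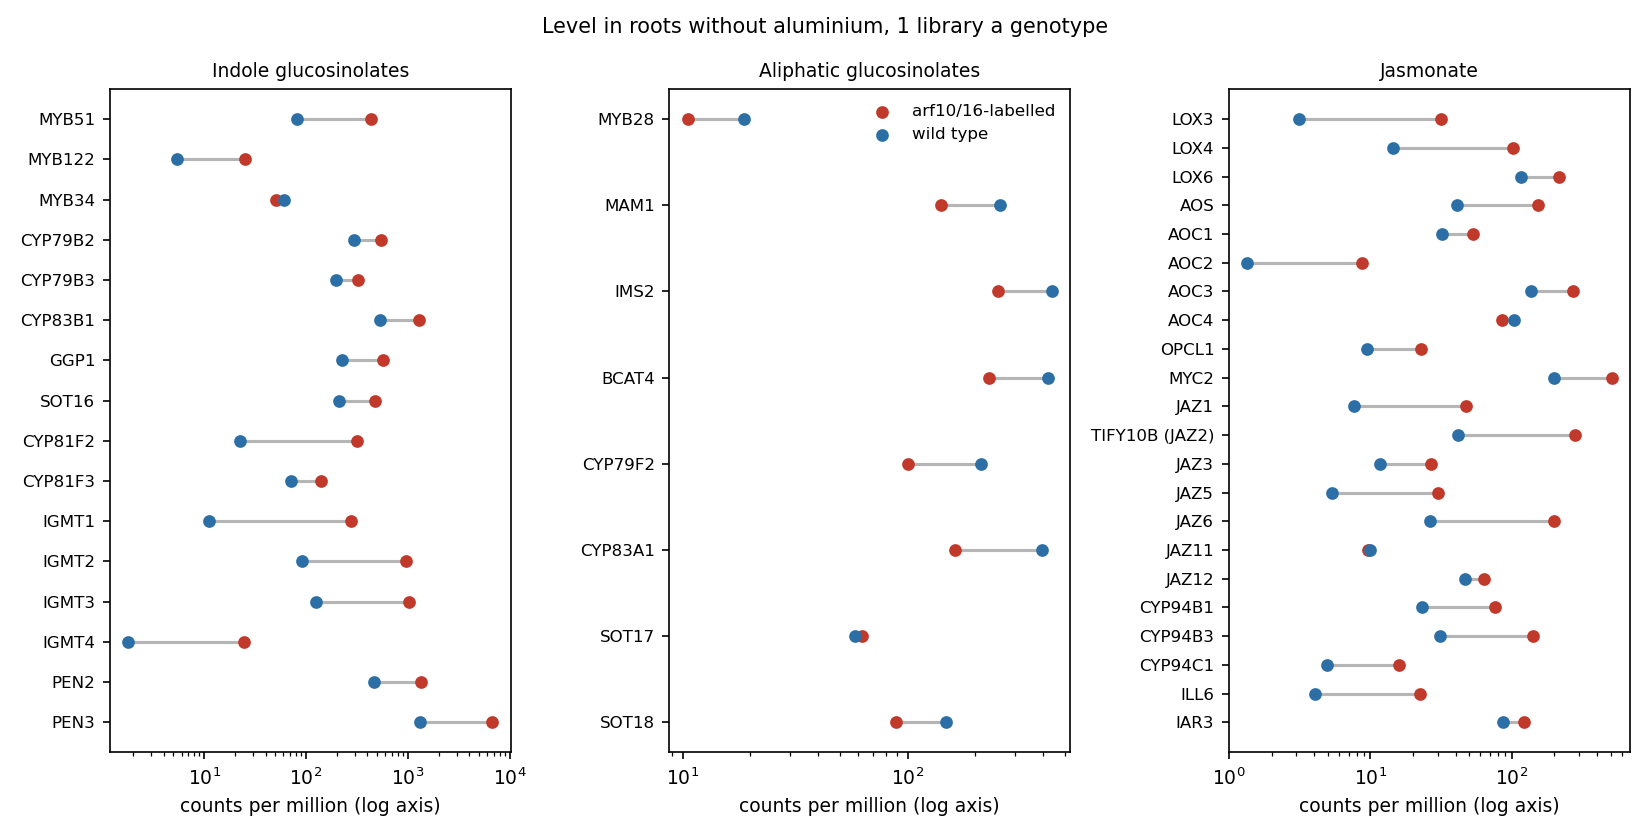
Level of each gene in CPM on a log axis, with arf10/16-labelled roots in red and wild type in blue and a grey bar between them, 1 library each at 0 µM Al. The panels show selected members of the lists, not all of them. In the left panel red lies right of blue for every gene shown but MYB34. In the middle panel it lies left of blue for every gene shown but SOT17. In the right panel it lies right of blue for all shown but AOC4 and JAZ11. Not drawn are GSTF9, CYP81F4, PYK10, MYC3, MYC4 and COI1, all below wild type. Of 9 measured aliphatic genes 2 lay above wild type, SOT17 among them.

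Jasmonate lists had higher members and no lower ones at each stage, from synthesis through repression to breakdown. Jasmonate is made from plastid fatty acids, activates genes by destroying JAZ repressors, and is known to induce its own JAZ and catabolic genes. Of 11 measured synthesis genes (of 16 listed, 2 had no row and 3 fell under the filter of 20 reads) 5 were higher and 0 lower (median log2 ratio 0.98). LOX3 and LOX4, lipoxygenases of the first step, were both higher: LOX3 had 69 reads in arf10/16-labelled roots and 7 in wild type, 10.1-fold (4.63 to 25.9) higher, and LOX4 had 222 reads in arf10/16-labelled roots and 32 in wild type, 7.08-fold (4.87 to 10.6) higher. AOS, the allene oxide synthase, had 333 reads in arf10/16-labelled roots and 92 in wild type, 3.69-fold (2.92 to 4.70) higher. Among the allene oxide cyclases, AOC2 had 19 reads in arf10/16-labelled roots and 3 in wild type (6.46-fold higher, interval 1.90 to 34.1), AOC3 had 588 reads in arf10/16-labelled roots and 303 in wild type (1.98-fold higher, just short of the rule, interval 1.72 to 2.28), and AOC4 had 186 reads in arf10/16-labelled roots and 232 in wild type, below wild type. These cyclase genes are close copies that may share reads. OPCL1, which activates the precursor for beta-oxidation, had 50 reads in arf10/16-labelled roots and 21 in wild type, 2.43-fold (1.43 to 4.26) higher.

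Among the repressors, 5 of 7 measured JAZ genes were higher and 0 lower, with a median log2 ratio of 2.49. JAZ6 had 436 reads in arf10/16-labelled roots and 59 in wild type, 7.54-fold (5.73 to 10.1) higher. TIFY10B, also called JAZ2, had 609 reads in arf10/16-labelled roots and 93 in wild type, 6.68-fold (5.36 to 8.4) higher. JAZ1 had 103 reads in arf10/16-labelled roots and 17 in wild type, 6.18-fold (3.68 to 11) higher. JAZ5 had 66 reads in arf10/16-labelled roots and 12 in wild type, 5.61-fold (3.01 to 11.4) higher, and JAZ3 had 59 reads in arf10/16-labelled roots and 26 in wild type, 2.31-fold (1.44 to 3.83) higher. JAZ11 and JAZ12 did not pass, with 21 and 139 reads in arf10/16-labelled roots and 22 and 104 in wild type. The other 5 members, JAZ4, JAZ7, JAZ8, TIFY7 and JAZ10, stayed under the filter with 3, 14, 12, 11 and 15 reads in arf10/16-labelled roots against 1, 3, 2, 2 and 3 in wild type.

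Breakdown of the active hormone followed the same direction, with 4 of 6 measured genes higher and 0 lower (of 8 listed, 2 fell under the filter of 20 reads). CYP94B3, which hydroxylates jasmonoyl-isoleucine, had 307 reads in arf10/16-labelled roots and 69 in wild type, 4.54-fold (3.48 to 5.98) higher. CYP94B1 had 166 reads in arf10/16-labelled roots and 52 in wild type (3.26-fold higher, interval 2.37 to 4.54) and CYP94C1 35 reads in arf10/16-labelled roots and 11 in wild type (3.24-fold higher, interval 1.61 to 7.08). ILL6, an amidohydrolase that cleaves the conjugate, had 49 reads in arf10/16-labelled roots and 9 in wild type, 5.55-fold (2.70 to 12.9) higher. Of the signalling genes, the transcription factor gene MYC2 had 1109 reads in arf10/16-labelled roots and 441 in wild type, 2.56-fold (2.29 to 2.87) higher, as 1 of 5 higher among 8 measured (of 14 listed, 2 had no row and 4 fell under the filter of 20 reads). Its relatives MYC3 (374 reads in arf10/16-labelled roots and 425 in wild type) and MYC4 (100 reads in arf10/16-labelled roots and 172 in wild type) and the receptor gene COI1 (98 reads in arf10/16-labelled roots and 160 in wild type) did not pass. TAT3, a tyrosine aminotransferase gene known as a jasmonate response gene, had 46 reads in arf10/16-labelled roots and 0 in wild type, at least 15.6-fold higher against a floor of 3 reads, with a near counting bound of 12.2-fold. NAC3, also called ANAC055, had 53 reads in arf10/16-labelled roots and 11 in wild type, 4.91-fold (2.54 to 10.4) higher. The storage protein gene VSP1, a leaf jasmonate marker, had 0 reads in both.

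The genes of pattern-triggered immunity, in which surface receptors detect microbial molecules, made up a list without a lower member. Of 26 measured members (of 30 listed, 1 had no row and 3 fell under the filter of 20 reads) 17 were higher and 0 lower (median log2 ratio 1.26). Among receptors, CERK1, the chitin co-receptor, had 266 reads in arf10/16-labelled roots and 119 in wild type, 2.28-fold (1.83 to 2.85) higher, and its partner LYK4 had 192 reads in arf10/16-labelled roots and 79 in wild type, 2.48-fold (1.90 to 3.26) higher. The flagellin receptor gene FLS2 had 28 reads in arf10/16-labelled roots and 39 in wild type and did not pass. Receptor genes for the danger peptide Pep were higher: PEPR1 had 731 reads in arf10/16-labelled roots and 214 in wild type, 3.48-fold (2.99 to 4.08) higher, and PEPR2 had 109 reads in arf10/16-labelled roots and 30 in wild type, 3.71-fold (2.45 to 5.75) higher. The precursors of those peptides lie side by side and were higher too. PROPEP3 had 528 reads in arf10/16-labelled roots and 159 in wild type, 3.39-fold (2.83 to 4.07) higher. PROPEP2 had 117 reads in arf10/16-labelled roots and 39 in wild type, 3.06-fold (2.11 to 4.52) higher. PROPEP1 had 82 reads in arf10/16-labelled roots and 25 in wild type, 3.35-fold (2.12 to 5.46) higher. These ligand and receptor genes of the same signal thus all passed the rule.

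Inside the cell, relay components divided by gene. MPK3, a MAP kinase of this pathway, had 2078 reads in arf10/16-labelled roots and 585 in wild type, 3.62-fold (3.3 to 3.98) higher, while MPK6 (346 reads in arf10/16-labelled roots and 379 in wild type), MPK4 (160 reads in arf10/16-labelled roots and 191 in wild type) and the upstream kinase genes MKK4 and MKK5 did not pass. RBOHD, the NADPH oxidase of the defence oxidative burst, had 1631 reads in arf10/16-labelled roots and 371 in wild type, 4.48-fold (4.0 to 5.03) higher, and its relative RBOH F had 562 reads in arf10/16-labelled roots and 422 in wild type, 1.36-fold (1.19 to 1.54) higher, under the rule. SOBIR1, a co-receptor kinase, had 964 reads in arf10/16-labelled roots and 403 in wild type, 2.44-fold (2.17 to 2.75) higher, and BIK1, a cytoplasmic kinase below the receptors, had 202 reads in arf10/16-labelled roots and 96 in wild type, 2.15-fold (1.67 to 2.77) higher. Both of these kinase genes passed with intervals below that of MPK3. MKS1, a MAP kinase substrate, had 113 reads in arf10/16-labelled roots and 28 in wild type, 4.12-fold (2.70 to 6.47) higher. SARD1, a regulator of salicylic acid synthesis, had 221 reads in arf10/16-labelled roots and 32 in wild type, 7.04-fold (4.85 to 10.6) higher, and its relative CBP60G had 30 reads in arf10/16-labelled roots and 13 in wild type, 2.35-fold (1.19 to 4.92) higher. The intervals of MPK3 and RBOHD lie wholly above those of MPK6 and RBOH F, while those of SARD1 and CBP60G overlap.

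Secretion genes that act in defence were higher in 6 of 8 measured cases (of 10 listed, 1 had no row and 1 fell under the filter of 20 reads), a count that includes PEN3. The plasma membrane syntaxin SYP122 had 1053 reads in arf10/16-labelled roots and 435 in wild type, 2.47-fold (2.21 to 2.77) higher, and its relative SYP121 had 44 reads in arf10/16-labelled roots and 13 in wild type, 3.45-fold (1.83 to 6.99) higher. SNAP33, their partner in membrane fusion, had 1308 reads in arf10/16-labelled roots and 432 in wild type, 3.09-fold (2.77 to 3.45) higher. EXO70B2, a subunit of the exocyst that tethers vesicles, had 653 reads in arf10/16-labelled roots and 230 in wild type, 2.90-fold (2.49 to 3.38) higher. The callose synthase gene GSL05 had 283 reads in arf10/16-labelled roots and 309 in wild type and did not pass.

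Families sorted by product name showed which protein classes the higher set holds. Of 48 measured WRKY transcription factors (of 72 listed, 9 had no row and 15 fell under the filter of 20 reads) 24 were higher and 1 lower (median log2 ratio 0.99), a share of 50.0% against the 7.09% of all measured loci. WRKY33, which activates camalexin genes, had 4834 reads in arf10/16-labelled roots and 1135 in wild type, 4.34-fold (4.07 to 4.64) higher. WRKY62 had 142 reads in arf10/16-labelled roots and 15 in wild type, 9.65-fold (5.66 to 17.7) higher, and WRKY38 had 100 reads in arf10/16-labelled roots and 13 in wild type, 7.84-fold (4.38 to 15.2) higher. WRKY28 had 189 reads in arf10/16-labelled roots and 32 in wild type, 6.02-fold (4.13 to 9.06) higher. WRKY60 was the 1 lower member, with 60 reads in arf10/16-labelled roots and 129 in wild type, 2.11-fold (1.54 to 2.91) lower. Under TMM scaling it fell short of the rule. Proteins with a VQ motif, which bind WRKY factors, were higher in 10 of 20 measured cases and lower in 0, led by AT1G17147 with 84 reads in arf10/16-labelled roots and 5 in wild type (17.1-fold higher, interval 7.06 to 54.1).

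Receptor-like kinases differed by class. Of 48 measured lectin receptor kinases (of 80 listed, 8 had no row and 24 fell under the filter of 20 reads) 24 were higher and 0 lower (median log2 ratio 0.94). AT5G65600 had 67 reads in arf10/16-labelled roots and 0 in wild type, at least 22.8-fold higher against the floor of 3, with a near counting bound of 18.0-fold. Of 12 measured cysteine-rich receptor-like kinases 6 were higher and 0 lower, led by CRK11 with 453 reads in arf10/16-labelled roots and 32 in wild type (14.4-fold higher, interval 10.1 to 21.4). Of 11 measured wall-associated kinases 4 were higher, with WAK5 at 269 reads in arf10/16-labelled roots and 56 in wild type (4.9-fold higher, interval 3.66 to 6.66). The large class of leucine-rich repeat kinases lay nearer the background, with 12 of 116 higher (10.3%), 4 lower and a median of -0.06. Intracellular resistance proteins of the NBS-LRR type, which detect effectors, were higher in 34 of 92 measured cases and lower in 2, with a median of 0.73 (of 154 listed, 18 had no row and 44 fell under the filter of 20 reads). SNC1, a well studied member, had 133 reads in arf10/16-labelled roots and 48 in wild type, 2.83-fold (2.02 to 4.02) higher. Members of these classes are often close copies that may share reads, so their counts are not independent.

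**Figure D3:**
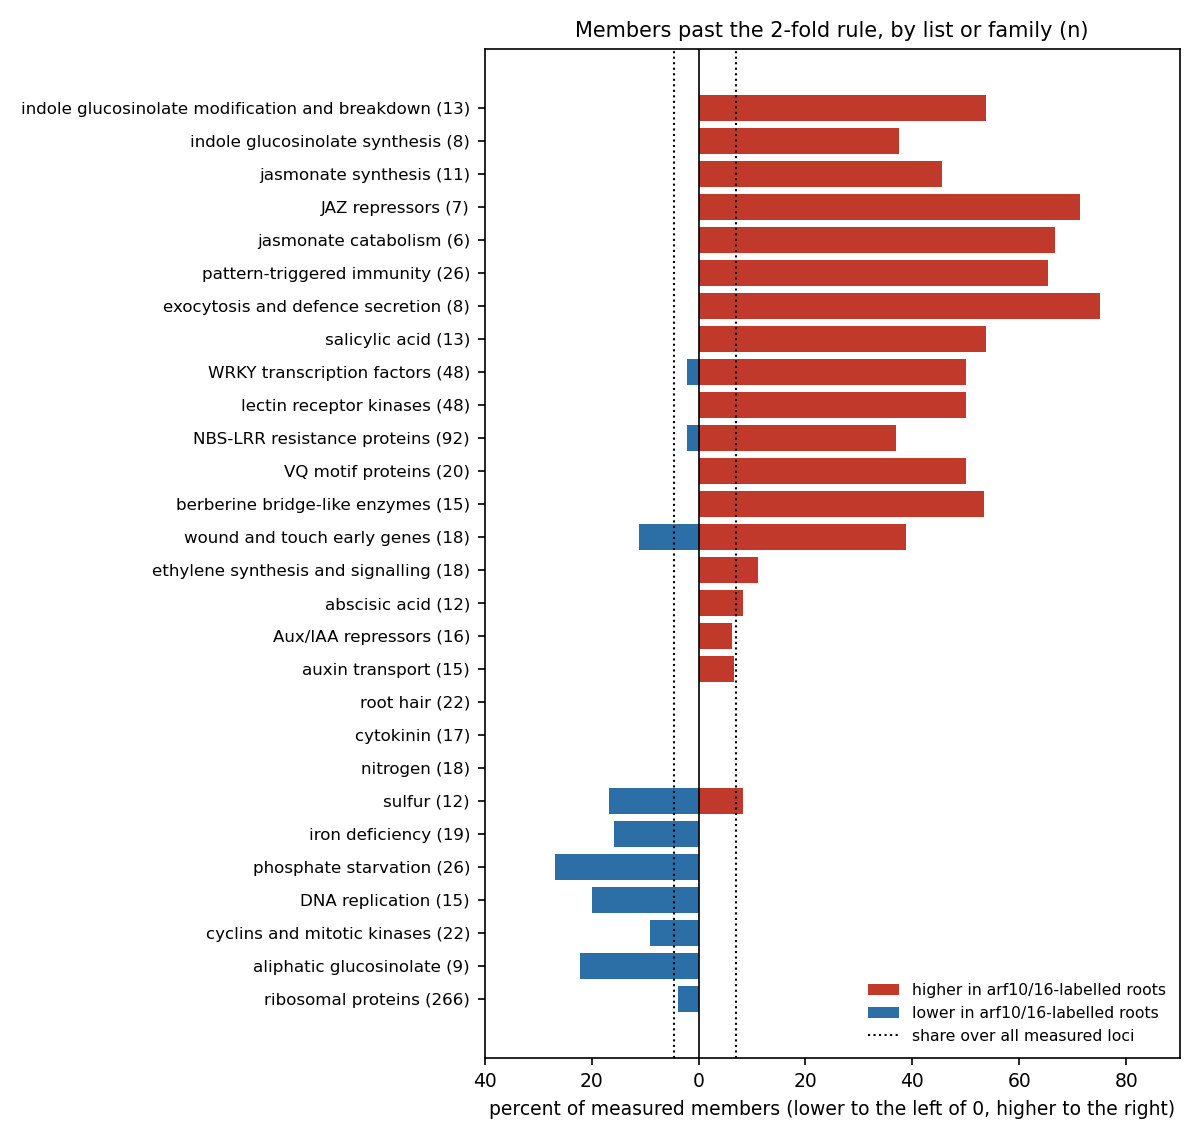
Bars give the percent of measured members that were higher (red, right of 0) or lower (blue, left of 0) in arf10/16-labelled roots at 0 µM Al, with the number measured in brackets after each name. The dotted lines mark the shares over all measured loci, 7.09% higher and 4.54% lower; the defence lists at the top reach past 35% higher, and the nutrient and cell division lists at the bottom have no red bar except sulfur.

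Salicylic acid and early wound lists also held shares of higher genes above the 7.09% of all measured loci, though many of their members did not pass. Of 13 measured salicylic acid genes (of 20 listed, 3 had no row and 4 fell under the filter of 20 reads) 7 were higher and 0 lower (median log2 ratio 1.1). EDS16, the isochorismate synthase of the hormone's main route, had 23 reads in arf10/16-labelled roots and 5 in wild type, 4.69-fold (1.74 to 15.8) higher. PAD4, a lipase-like immune regulator, had 798 reads in arf10/16-labelled roots and 373 in wild type, 2.18-fold (1.93 to 2.47) higher. NPR3, a salicylic acid receptor, had 442 reads in arf10/16-labelled roots and 138 in wild type, 3.27-fold (2.69 to 3.98) higher, while NPR1 had 287 reads in arf10/16-labelled roots and 196 in wild type, 1.49-fold (1.24 to 1.8) higher and under the rule. Early genes of wounding and touch were higher in 7 of 18 measured cases and lower in 2 (of 22 listed, 1 had no row and 3 fell under the filter of 20 reads). RRTF1, an ERF factor, had 256 reads in arf10/16-labelled roots and 58 in wild type, 4.50-fold (3.37 to 6.09) higher. The lower members were the cold regulators CBF1, with 10 reads in arf10/16-labelled roots and 39 in wild type (3.82-fold lower, interval 1.87 to 8.59), and DREB1A, with 3 reads in arf10/16-labelled roots and 25 in wild type (8.17-fold lower, interval 2.49 to 42.3).

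Ethylene and abscisic acid lists had shares past the rule near the 7.09% of all measured loci. Of 18 measured ethylene genes 2 were higher, as was 1 of 12 abscisic acid genes, and 0 of either were lower. Of 23 listed ethylene and 25 listed abscisic acid genes, the others had no row or fell under the filter. Short of the rule the lists differed: 10 of the 12 abscisic acid genes had a ratio above 1 (median log2 ratio 0.48), against 10 of the 18 ethylene genes (median 0.05). ACS7, an enzyme of ethylene synthesis, had 158 reads in arf10/16-labelled roots and 73 in wild type, 2.21-fold (1.66 to 2.95) higher. ERF1, where ethylene and jasmonate signals meet, had 20 reads in arf10/16-labelled roots and 1 in wild type, a ratio of 20.4-fold (3.26 to 845). NCED3, of abscisic acid synthesis, had 34 reads in arf10/16-labelled roots and 14 in wild type, 2.48-fold (1.29 to 5.00) higher. Cytokinin genes had 0 of 17 past the rule, or 1 higher under TMM scaling.

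Auxin genes, the field of ARF10 and ARF16 themselves, showed few differences of this size outside conjugation and the SAUR family. None of 6 measured synthesis genes and none of 9 other measured auxin response factors, ARF17 included, passed the rule. Among 16 measured Aux/IAA genes (of 28 listed, 3 had no row and 9 fell under the filter of 20 reads) 1 passed: IAA33, a member of the family without the usual degradation motif, had 54 reads in arf10/16-labelled roots and 6 in wild type, 9.18-fold (3.95 to 26.1) higher. With 10 µM Al it had 53 reads in arf10/16-labelled roots and 3 in wild type, 19.4-fold (6.28 to 96.9) higher. Of 15 measured transport genes 1 was higher (6.67% against 7.09% of all measured loci), the kinase gene PID with 42 reads in arf10/16-labelled roots and 18 in wild type (2.38-fold higher, interval 1.34 to 4.39). A ratio below 1 was found for 12 of the 15, and for 60.5% of all measured loci. LAX3, an auxin influx carrier gene, had 232 reads in arf10/16-labelled roots and 373 in wild type (1.58-fold lower, interval 1.33 to 1.87), and EIR1, an efflux carrier gene, had 431 reads in arf10/16-labelled roots and 453 in wild type. Of 8 measured auxin conjugation and breakdown genes 2 were higher (25.0% against 7.09% of all measured loci) and 0 lower. They were GH3.1 (42 reads in arf10/16-labelled roots and 11 in wild type, 3.89-fold higher, interval 1.97 to 8.39) and BRU6 (231 reads in arf10/16-labelled roots and 72 in wild type, 3.27-fold higher, interval 2.5 to 4.32). Outside this list, AT1G48690, annotated as an auxin-responsive GH3 family protein, was lower. It had 11 reads in arf10/16-labelled roots and 53 in wild type, 4.72-fold (2.44 to 10.0) lower. SAUR genes, a family of small auxin-induced proteins, were lower in 4 of 9 measured cases (44.4% against 4.54% of all measured loci) and higher in 0. They were led by AT2G46690 with 99 reads in arf10/16-labelled roots and 348 in wild type (3.45-fold lower, interval 2.75 to 4.35).

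Few root cap and root tip genes passed the rule. Of 7 measured root cap genes 0 passed; FEZ, which promotes divisions of cap stem cells, had 14 reads in arf10/16-labelled roots and 27 in wild type (1.89-fold lower, interval 0.958 to 3.9), and NAC070, a cap maturation factor, had 27 reads in arf10/16-labelled roots and 43 in wild type (1.56-fold lower, interval 0.943 to 2.63), with intervals that include 1. Of 7 stem cell niche genes 1 was higher, the peptide gene RGF3 with 23 reads in arf10/16-labelled roots and 8 in wild type (2.93-fold higher, interval 1.27 to 7.58). PLT1, the master regulator of the root meristem, had 70 reads in arf10/16-labelled roots and 55 in wild type and did not pass. Starch genes, relevant to the gravity-sensing grains of the cap, had 0 of 14 past the rule, and root hair genes 0 of 22, with a median log2 ratio of 0.12. A 1.89-fold difference in FEZ was thus within counting error at this depth.

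On the lower side, phosphate starvation had more lower members than any other pathway list. Plants short of phosphate induce transporters, phosphatases and enzymes that swap phospholipids for sulfo- and galactolipids. Of 26 measured members (of 30 listed, 4 fell under the filter of 20 reads) 0 were higher and 7 were lower (26.9% against 4.54% of all measured loci). A ratio below 1 was found for 24 (23 under TMM scaling), and for 60.5% of all measured loci (50.0% under TMM scaling). The list median log2 ratio was -0.58 (-0.44 under TMM scaling, where 3 were lower). Of the 7 lower members 5 act in the exchange of membrane lipids. SQD2, of sulfolipid synthesis, had 1604 reads in arf10/16-labelled roots and 3462 in wild type, 2.12-fold (1.99 to 2.25) lower. MGD2, of galactolipid synthesis, had 83 reads in arf10/16-labelled roots and 185 in wild type (2.19-fold lower, interval 1.68 to 2.87), MGDC 8 reads in arf10/16-labelled roots and 26 in wild type (3.19-fold lower, interval 1.40 to 8.14), and the phospholipase gene PLDP2 232 reads in arf10/16-labelled roots and 538 in wild type (2.27-fold lower, interval 1.95 to 2.66). PEPC1, a phosphatase acting on phosphocholine and phosphoethanolamine, had 27 reads in arf10/16-labelled roots and 84 in wild type, 3.05-fold (1.96 to 4.9) lower.

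Regulators and transporters of phosphate differed by smaller ratios, apart from the other two lower members. SPX3, a phosphate-sensing protein gene, had 187 reads in arf10/16-labelled roots and 403 in wild type (2.11-fold lower, interval 1.77 to 2.53), and SPX1 had 1221 reads in arf10/16-labelled roots and 2178 in wild type (1.75-fold lower, interval 1.63 to 1.88). The noncoding RNA IPS1, a decoy for miR399, had 1162 reads in arf10/16-labelled roots and 2344 in wild type (1.98-fold lower, interval 1.84 to 2.12), just under the rule. PAP17, a secreted acid phosphatase gene, had 334 reads in arf10/16-labelled roots and 743 in wild type, 2.18-fold (1.91 to 2.49) lower. The transporter gene PHT1;4 had 938 reads in arf10/16-labelled roots and 1452 in wild type (1.52-fold lower, interval 1.40 to 1.65), PHT1;1 had 2037 reads in arf10/16-labelled roots and 2219 in wild type, and the master regulator PHR1 had 159 reads in arf10/16-labelled roots and 158 in wild type, a ratio near 1.

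Iron and sulfur genes included some lower members, while nitrogen genes had 0 of 18 past the rule. The ferric reductase gene FRO2 had 1529 reads in arf10/16-labelled roots and 3276 in wild type, 2.1-fold (1.98 to 2.23) lower, and bHLH38, which partners the iron regulator FIT, had 5 reads in arf10/16-labelled roots and 21 in wild type (4.12-fold lower, interval 1.51 to 14). IRT1, the main iron transporter, had 365 reads in arf10/16-labelled roots and 547 in wild type, 1.47-fold (1.28 to 1.68) lower and under the rule. In all 3 of 19 measured iron genes were lower (15.8% against 4.54% of all measured loci) and 0 higher (of 28 listed, 9 fell under the filter of 20 reads). With TMM scaling 1 of the 19 was lower, beside 2.8% of all measured loci. Of 12 measured sulfur genes 1 was higher (8.33% against 7.09% of all measured loci) and 2 were lower (16.7% against 4.54%). The sulfur-responsive genes LSU2 (9 reads in arf10/16-labelled roots and 39 in wild type, 4.25-fold lower, interval 2.02 to 9.98) and LSU4 (13 reads in arf10/16-labelled roots and 54 in wild type, 4.07-fold lower, interval 2.19 to 8.14) contrasted with APS3, an ATP sulfurylase gene, which had 204 reads in arf10/16-labelled roots and 31 in wild type (6.71-fold higher, interval 4.58 to 10.1).

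Few cell division genes passed the rule, and most had a ratio below 1. Of 22 measured cyclins, mitotic kinases and partners (of 30 listed, 8 fell under the filter of 20 reads) 2 were lower (9.09% against 4.54% of all measured loci) and 0 higher. A ratio below 1 was found for 20 (17 under TMM scaling), and for 60.5% of all measured loci (50.0% under TMM scaling). The list median log2 ratio was -0.68 (-0.55 under TMM scaling). CYCA1;1 had 14 reads in arf10/16-labelled roots and 39 in wild type, 2.73-fold (1.45 to 5.45) lower. CDKB2;1, a mitotic kinase, had 64 reads in arf10/16-labelled roots and 126 in wild type, 1.93-fold (1.42 to 2.65) lower and under the rule. Of 15 measured replication genes 3 were lower (1 under TMM scaling), namely the sliding clamp genes PCNA1 (27 reads in arf10/16-labelled roots and 59 in wild type, 2.14-fold lower, interval 1.34 to 3.52) and PCNA2 (29 reads in arf10/16-labelled roots and 64 in wild type, 2.16-fold lower, interval 1.38 to 3.48), and TSO2, a ribonucleotide reductase subunit gene (64 reads in arf10/16-labelled roots and 147 in wild type, 2.25-fold lower, interval 1.67 to 3.07). Cytosolic and organellar ribosomal proteins had 10 of 266 lower (3.76%, near the background of 4.54%), 0 higher and 241 below 1 (222 under TMM scaling), with a median of -0.46. Histones and kinesins had 0 past the rule, with medians of -0.38 over 34 loci and -0.50 over 19. The summed meristem markers were 53.0 CPM in arf10/16-labelled roots and 63.2 CPM in wild type. That sum includes CYCB1;1 (16 reads in arf10/16-labelled roots and 45 in wild type), itself one of the cyclins, so it is not separate from them. Of the remaining markers, PLT1 had 70 reads in arf10/16-labelled roots and 55 in wild type, and PLT2 had 30 and 41. The part of the meristem in these values was not tested.

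The loci furthest below wild type were mostly not in these lists. AT4G29200, annotated as a beta-galactosidase-related protein, had 1 read in arf10/16-labelled roots and 162 in wild type, a ratio of 159-fold (28.1 to 6312) lower, and 1 read in arf10/16-labelled roots and 105 in wild type with 10 µM Al. AT3G19430, a late embryogenesis abundant-like protein gene, had 30 reads in arf10/16-labelled roots and 665 in wild type, 21.7-fold (15.1 to 32.5) lower. AT1G65570, a pectin lyase-like protein gene, had 2 reads in arf10/16-labelled roots and 57 in wild type, a ratio of 27.9-fold (7.39 to 236) lower. Of the loci with a symbol, BARS1, the baruol synthase of a root triterpene cluster, had 19 reads in arf10/16-labelled roots and 200 in wild type, 10.3-fold (6.44 to 17.5) lower, and CYP705A3, its neighbour by identifier, had 45 reads in arf10/16-labelled roots and 165 in wild type (3.6-fold lower, interval 2.57 to 5.12), while PEN1 of the same stretch had 100 reads in arf10/16-labelled roots and 68 in wild type and did not pass. The other symbols among the lowest 12 were sks15, XTH5, CYP71B26, GA3OX1, UGT72B3, GDU6, DREB1A, RTFL16, CYP710A3 and XTH16, between 3.1- and 8.17-fold lower. GA3OX1, the enzyme that makes active gibberellin, had 30 reads in arf10/16-labelled roots and 116 in wild type, 3.79-fold (2.52 to 5.87) lower. XTH5 and XTH16, which cut and rejoin wall xyloglucan, were both among them: XTH5 had 12 reads in arf10/16-labelled roots and 65 in wild type, and XTH16 had 50 reads in arf10/16-labelled roots and 158 in wild type.

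At the other end, the loci with a symbol that stood furthest above wild type after ARF10 were IGMT1, TAT3, CYP706A2, CYP81F2, CRK11, IGMT2, IGMT3, PUP7, PP2-B14, GRX480 and PLA2A. CYP706A2, a cytochrome P450, had 639 reads in arf10/16-labelled roots and 43 in wild type, 15.2-fold (11.1 to 21.1) higher. PUP7, a purine permease, had 300 reads in arf10/16-labelled roots and 32 in wild type, 9.56-fold (6.63 to 14.2) higher. GRX480, a glutaredoxin that binds TGA factors, had 109 reads in arf10/16-labelled roots and 9 in wild type, 12.4-fold (6.27 to 27.7) higher. PP2-B14, a phloem protein 2 family member, had 126 reads in arf10/16-labelled roots and 11 in wild type, 11.7-fold (6.31 to 24.0) higher, and PLA2A, a lipid acyl hydrolase, 247 reads in arf10/16-labelled roots and 27 in wild type, 9.33-fold (6.26 to 14.4) higher. AT5G56960, a bHLH factor without a symbol that was named after its values were seen, had 143 reads in arf10/16-labelled roots and 4 in wild type, 36.5-fold (13.9 to 136) higher.

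Some loci past the rule stood next to each other in the genome. Counting measured loci in the order of their identifiers, 24 runs of 3 or more neighbours were higher and 2 were lower, and these 26 runs hold 85 loci. Of all measured loci 7.09% were higher and 4.54% lower, and how many runs these shares alone would give was not tested. Besides the IGMT and PROPEP groups, a run on chromosome 4 holds WRKY28, PUP8, PUP7 and their neighbours. PUP8, a close copy of PUP7 that may share its reads, had 33 reads in arf10/16-labelled roots and 3 in wild type, 11.2-fold (3.52 to 57.2) higher. Another holds CRK10 (162 reads in arf10/16-labelled roots and 22 in wild type, 7.51-fold higher, interval 4.79 to 12.3), CRK11 and CRK19. Berberine bridge-like enzymes, flavoprotein oxidases of which some oxidise indole compounds or cell wall fragments, were higher in 8 of 15 measured cases and formed 2 of the runs. AT1G30730 had 950 reads in arf10/16-labelled roots and 218 in wild type, 4.44-fold (3.83 to 5.17) higher. One of the lower runs was of 3 mannose-binding lectin genes. AT1G52070 had 188 reads in arf10/16-labelled roots and 1185 in wild type, 6.18-fold (5.29 to 7.25) lower. AT1G52060 had 178 reads in arf10/16-labelled roots and 1069 in wild type, 5.89-fold (5.02 to 6.94) lower. AT1G52050 had 130 reads in arf10/16-labelled roots and 503 in wild type, 3.79-fold (3.12 to 4.64) lower. Members of such runs are often tandem copies, which can share reads, so a run is not several independent loci.

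**Figure D4:**
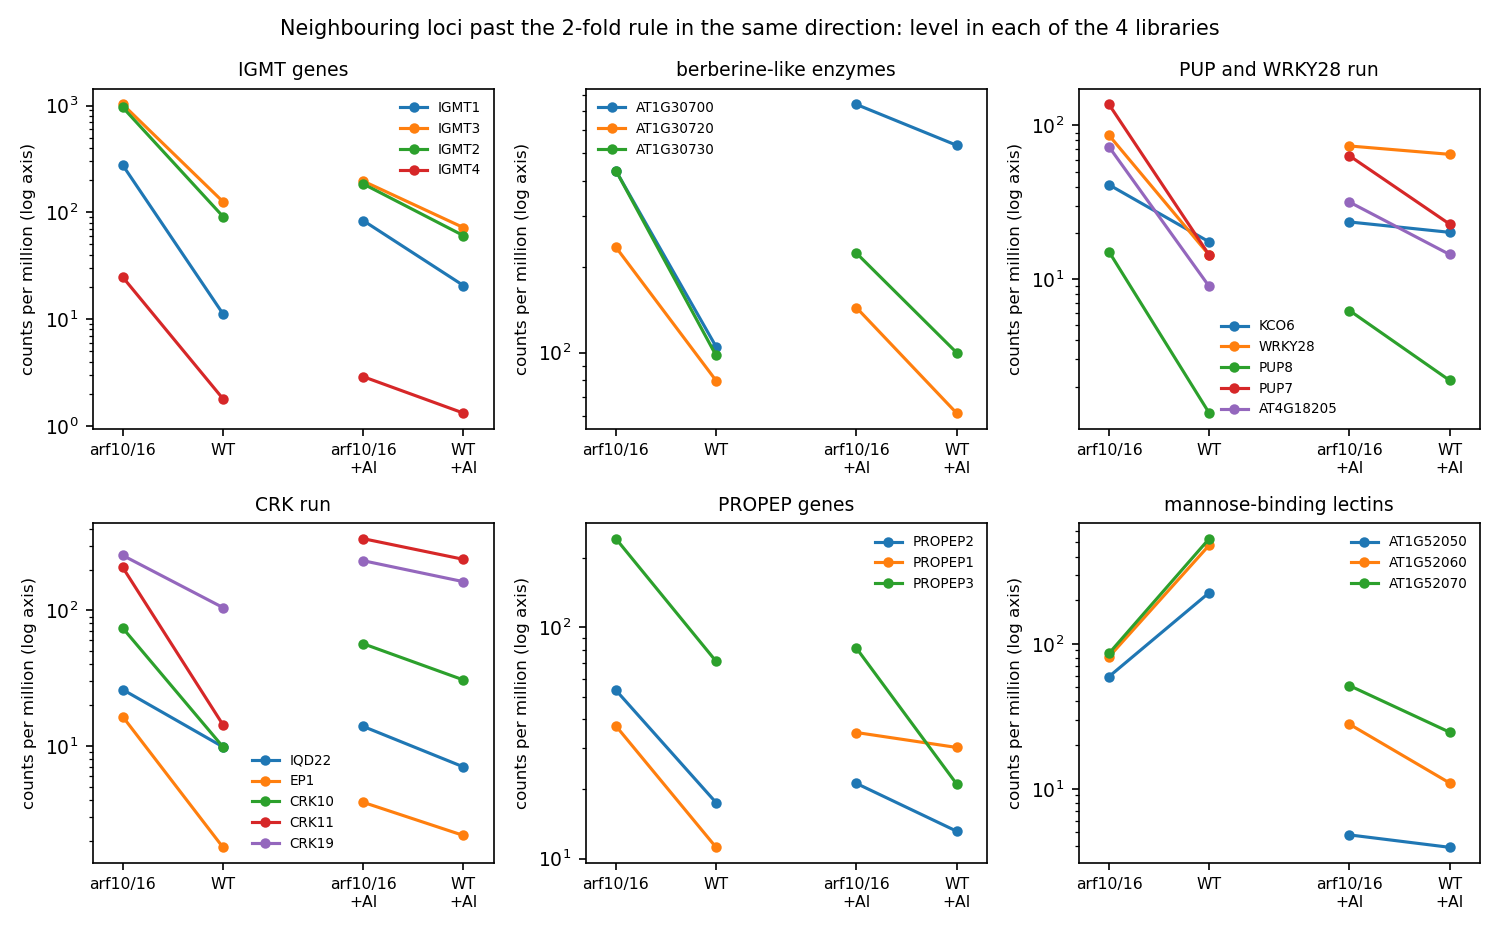
CPM on a log axis of the loci in 6 runs of neighbours, each line joining arf10/16-labelled roots to wild type at 0 µM Al (left pair) and at 10 µM Al (right pair), 1 library a point. The lectin genes lie below wild type in the left pair and above it in the right pair, and all other lines fall from arf10/16-labelled roots to wild type in both pairs.

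The pair of libraries at 10 µM Al gives a second view of the same genotypes, from other libraries and in another condition. There 420 loci of 12925 measured (3.25%) were higher in arf10/16-labelled roots and 365 (2.82%) lower. Of the 940 loci higher without Al, 854 were measured with Al, where 154 were higher, 1 was lower and 699 were neither; their median log2 ratio was 1.54 without Al and 0.54 with Al. Of the 602 lower loci, 471 were measured with Al, where 85 were lower, 8 were higher and 378 were neither, with medians of -1.23 without and -0.50 with Al. The loci were chosen by their ratio without Al, so these medians are a description, and whether the genotype difference itself depends on Al cannot be tested with 1 library a group.

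By list, the defence medians were nearer 0 with Al and the aliphatic glucosinolate median was not. The JAZ median was 2.49 without and 0.54 with Al, that of jasmonate catabolism 1.70 and 0.11, that of indole glucosinolate modification 1.54 and 0.81, and that of pattern-triggered immunity 1.26 and 0.52. Aliphatic glucosinolate genes had medians of -0.84 without and -1.01 with Al, where 4 of 8 were lower, and phosphate starvation genes -0.58 and -0.49. Root hair genes ran the other way, with 0 of 22 past the rule without Al and 13 of 20 higher with Al (medians 0.12 and 1.24). CYP81F2, as an example, had 694 reads in arf10/16-labelled roots and 50 in wild type without Al, and 264 reads in arf10/16-labelled roots and 81 in wild type with Al. None of these differences between pairs was tested.

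**Figure D5:**
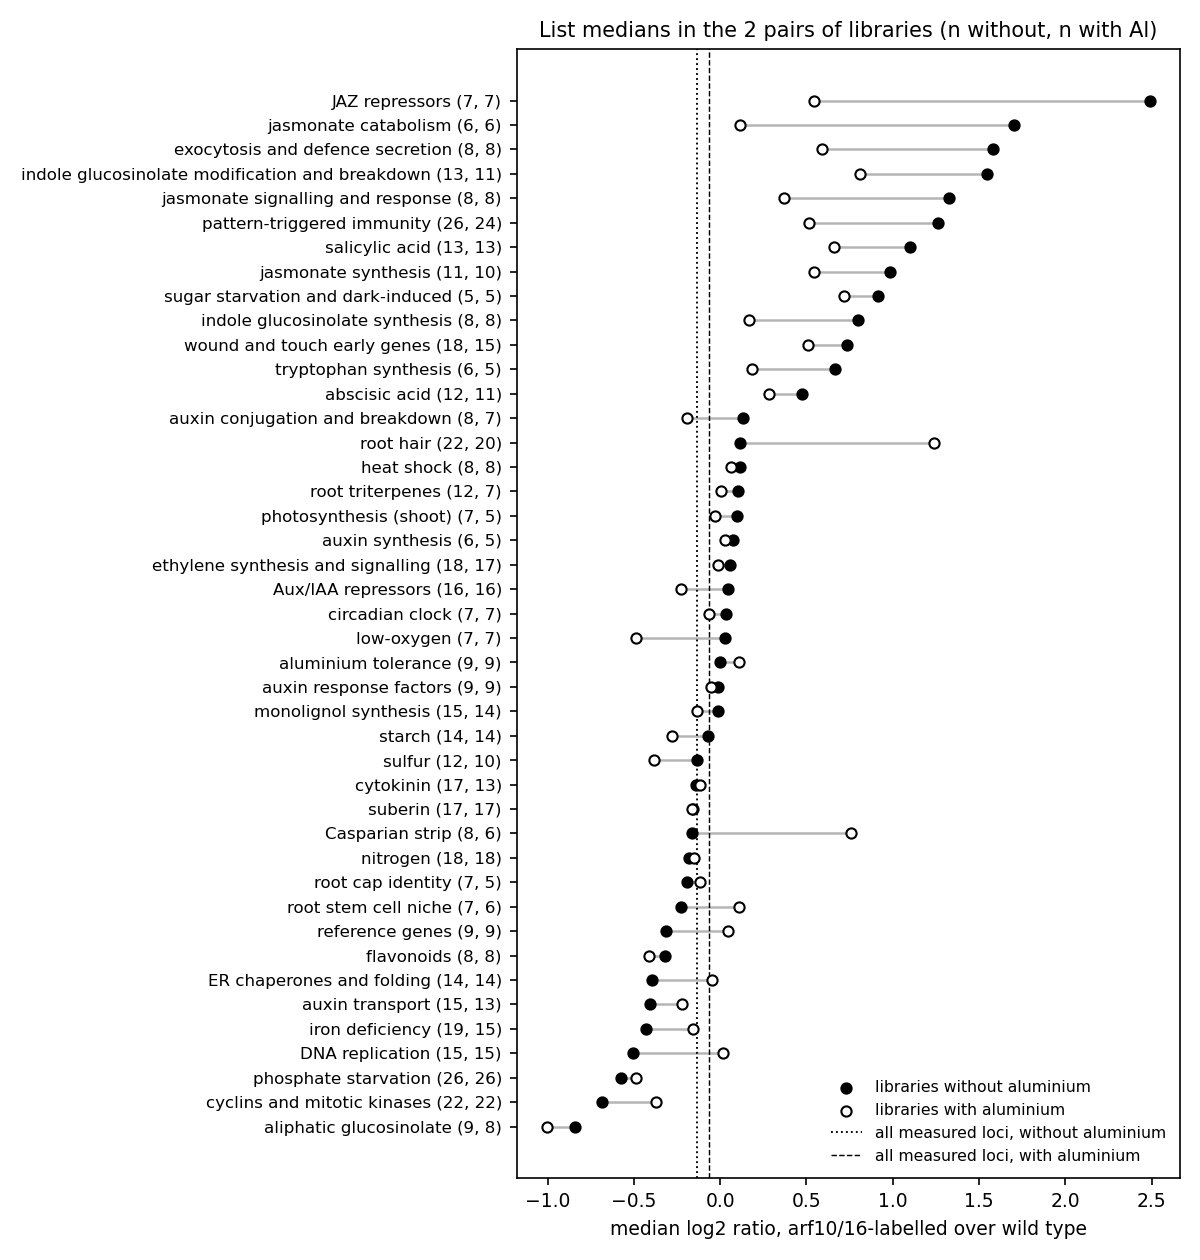
Median log2 ratio of arf10/16-labelled roots over wild type for each list with at least 5 measured members, filled for the libraries at 0 µM Al and open for those at 10 µM Al, with the numbers measured in brackets. The filled points of the defence lists lie to the right, up to 2.49 for JAZ repressors, and the dotted and dashed lines mark the medians of all measured loci, -0.14 and -0.06.

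The 4 libraries together allow 1 test, a genotype effect in a model that adds genotype and treatment, with 2 libraries a genotype and 1 residual degree of freedom. The 2 libraries without Al are among the 4, so the model is not a separate check on their ratios. Over 14739 loci tested with edgeR's quasi-likelihood method and Benjamini-Hochberg adjustment, 289 (1.96%) rose and 47 (0.319%) fell in arf10/16-labelled roots at the threshold of 0.05, and DESeq2's Wald test gave 170 and 6 of 8167. ARF10 rose by 4.86 ± 0.26 (log2, SE; adjusted p = 0.000445), and ARF16 had an effect of -0.85 ± 0.22 that did not pass (adjusted p = 0.0910). In the same test 8 of 13 indole glucosinolate modification genes rose, among them CYP81F2 (2.92 ± 0.41; adjusted p = 0.0257), IGMT1 (3.39 ± 0.51; adjusted p = 0.0257) and PEN3 (1.66 ± 0.35; adjusted p = 0.0498), and 0 of 8 core synthesis genes. Further, 3 of 7 JAZ genes, 5 of 26 immunity genes, 12 of 48 WRKY genes and 10 of 92 NBS-LRR genes rose, and 0 of these fell.

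Single regulators, peptides and enzymes passed the same edgeR model. PROPEP3 rose by 1.96 ± 0.20 (adjusted p = 0.0104), RRTF1 by 2.30 ± 0.22 (adjusted p = 0.00972) and IAA33 by 3.73 ± 0.40 (adjusted p = 0.0104). MYB51 rose by 1.81 ± 0.32 (adjusted p = 0.0361), MYC2 by 1.25 ± 0.20 (adjusted p = 0.0283) and WRKY33 by 1.67 ± 0.27 (adjusted p = 0.0283). On the other side, AT4G29200 (-6.71 ± 0.41; adjusted p = 0.000708), BARS1 (-3.24 ± 0.35; adjusted p = 0.0104) and PEPC1 (-1.41 ± 0.22; adjusted p = 0.0281) fell. LSU4 (-1.97 ± 0.28; adjusted p = 0.0257), CYP83A1 (-1.04 ± 0.19; adjusted p = 0.0385), IPS1 (-0.93 ± 0.18; adjusted p = 0.0420) and the Aux/IAA gene ATAUX2-11 (-1.01 ± 0.20; adjusted p = 0.0451) also fell. None of the listed cyclin, replication, iron or ribosomal protein genes passed, which does not show that they did not differ. The test takes departures from additivity as its error, so a genotype difference that is present in 1 treatment only counts against itself; RBOHD (1.46 ± 0.35; adjusted p = 0.0697), CRK11 (2.03 ± 0.63; adjusted p = 0.153) and CYP94B3 (1.23 ± 0.40; adjusted p = 0.176), all several-fold higher without Al, did not pass.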

How the data were processed

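Total RNA of Arabidopsis roots was sequenced in 4 libraries on an Illumina instrument, per the labels' protocols. Raw read counts per transcript model were deposited by the authors, with null where no read was counted, and a second table deposited by the authors holds the same counts as RPKM, scaled per kilobase of model and by the column total. The aligner, counter, genome build, annotation and strand setting were not given in the sources used here, so reads of overlapping, antisense and near-identical genes cannot be told apart. Whether the libraries came from separate cultures is not stated either.

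Null was set to 0 and transcript models were summed per locus. Names were taken from RefSeq (TAIR10.1) by locus identifier, for 22138 of 22284 loci (99.3%). Counts were scaled to CPM by the library total of all loci. A locus was measured with at least 20 reads over both libraries, and higher or lower with a ratio of at least 2-fold whose exact 95% Clopper-Pearson counting interval excluded 1. A count of 0 was set to a floor of 3 reads per library. The counting intervals treat reads as independent and cover counting error only.

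The additive model used all 4 libraries in edgeR 4.0.16 (TMM factors, filterByExpr, quasi-likelihood test, Benjamini-Hochberg adjustment over all loci tested, threshold 0.05; R 4.3.3), with DESeq2 1.42.0 as an alternative. Standard errors of its log2 effects were obtained as |effect| over the root of F. Intervals were computed with SciPy 1.17.1, pandas 2.3.3 and Python 3.11.15, and figures drawn with matplotlib 3.10.9. Alternatives were TMM and median-of-ratios scaling, other filters, a 3-fold rule, the most-read model of each locus and totals without the 10 most-read loci.

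Text names were chosen as ARF10 and ARF16, the 12 loci with a symbol highest and the 12 lowest by the near bound of their interval, up to 4 past the rule per list and direction, and list members with a defining role in their pathway. Loci without a symbol, and some further members, were named after their values were seen. The comparison, the gene lists and the families were chosen with earlier results of these data known, so their counts and medians are descriptions.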

Additional observations from a re-analysis of the deposited data

Results flagged for a closer look

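In 9 loci the genotype difference passed the 2-fold rule without Al and passed it in the opposite direction with 10 µM Al. They were found by searching all loci measured in both pairs, so they were chosen after their values were seen. With 1 library a group the change of direction was not tested.

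The mannose-binding lectin genes AT1G52070 and AT1G52060, neighbours on chromosome 1, were the most abundant in wild type after AT4G15390 and AT5G60530. AT1G52070 had 188 reads in arf10/16-labelled roots and 1185 in wild type without Al (log2 ratio -2.63), and 107 reads in arf10/16-labelled roots and 56 in wild type with Al (1.07). AT1G52060 had 178 reads in arf10/16-labelled roots and 1069 in wild type without Al (-2.56), and 58 reads in arf10/16-labelled roots and 25 in wild type with Al (1.35). As close copies they may share reads.

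AT4G15390, an acyl-transferase gene of the HXXXD type, had 1067 reads in arf10/16-labelled roots and 2571 in wild type without Al (-1.24), and 124 reads in arf10/16-labelled roots and 65 in wild type with Al (1.06). AT5G60530, annotated as related to late embryogenesis abundant proteins, had 625 reads in arf10/16-labelled roots and 1597 in wild type without Al (-1.33; 1.06 with Al, from 93 reads in arf10/16-labelled roots and 49 in wild type). AT5G46900, a lipid-transfer-like protein gene, had 135 reads in arf10/16-labelled roots and 280 in wild type without Al (-1.02; 3.41 with Al, from 29 reads in arf10/16-labelled roots and 3 in wild type). These 3 genes and both lectin genes all had fewer reads with Al in each genotype.

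The others had fewer reads. AT1G36060, a DNA-binding protein gene of the integrase type, had 66 reads in arf10/16-labelled roots and 170 in wild type without Al (-1.34; 1.05 with Al, from 87 reads in arf10/16-labelled roots and 46 in wild type). AT4G31320, a SAUR-like gene, had 41 reads in arf10/16-labelled roots and 87 in wild type without Al (-1.06; 1.21 with Al, from 40 reads in arf10/16-labelled roots and 19 in wild type). AT5G24570, of unknown function, had 4 reads in arf10/16-labelled roots and 19 in wild type without Al (-2.22; 1.60 with Al, from 36 reads in arf10/16-labelled roots and 13 in wild type). AT4G22530, a methyltransferase gene, was the 1 locus higher without Al, with 35 reads in arf10/16-labelled roots and 17 in wild type (1.07; -1.28 with Al, from 24 reads in arf10/16-labelled roots and 64 in wild type).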

How the results depend on the processing

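No paired analysis was possible because each group is 1 library, with no replicate numbers to pair. Treatment is already a term of the additive model. The 940 higher and 602 lower loci became 1141 and 371 under TMM scaling, where all 940 higher and 371 of the lower loci kept their call. With at least 100 reads the counts were 524 and 168, and with a 3-fold rule 451 and 137, both stricter by construction. In the additive model, the 289 loci that rose and 47 that fell became 740 and 179 with no filter on low counts, over 22284 loci tested. DESeq2 gave 170 and 6, over 8167 loci with an adjusted p. The cause of these shifts was not tested. The other alternatives run left these counts within 1.5 times. Among the 817 single genes checked, none past the rule changed direction under TMM scaling, median-of-ratios scaling or the most-read model alone. Other loci past the rule were not checked for a change of direction. TMM scaling moved all 45 list medians, and some medians near 0 changed sign. That of starch genes was -0.07 by library totals and 0.06 by TMM, and that of leucine-rich repeat kinases -0.06 and 0.08. Of 817 values of single genes, TMM scaling moved 41 out of the rule of size and 12 into it. Of 90 list counts it moved 11, and the filter of at least 100 reads moved 26. Beside those given above, under TMM scaling suberin genes had 2 higher, root triterpene genes 2, shoot photosynthesis genes 1 and sugar starvation genes 3, and flavonoid genes 1 lower. With 1 library a side, a difference between cultures cannot be told apart from the genotype, and 9020 loci under 20 reads were too shallow to describe.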

Other observations

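Families of secreted and detoxifying enzymes, not described above, also held higher members in arf10/16-labelled roots without Al. They were chosen with earlier results of these data known, so their counts are descriptions beside the 7.09% higher and 4.54% lower of all measured loci. Of 51 measured class III peroxidases, secreted enzymes that make and use hydrogen peroxide in the wall, 11 were higher and 1 lower, and 5 rose in edgeR's additive model. That model includes the 2 libraries without Al compared here, so it is not a separate check on these counts. AT5G39580 had 153 reads in arf10/16-labelled roots and 12 in wild type, 13.0-fold (7.23 to 25.7) higher, and PER4 had 578 reads in arf10/16-labelled roots and 138 in wild type, 4.27-fold (3.54 to 5.18) higher. AT5G51890 was the lower one, with 138 reads in arf10/16-labelled roots and 306 in wild type. Of 12 measured laccases, copper oxidases of the wall, 3 were higher and 0 lower, and the same 3 rose in the additive model: LAC8 (1533 reads in arf10/16-labelled roots and 539 in wild type; adjusted p = 0.0257), LAC7 (417 reads in arf10/16-labelled roots and 168 in wild type; adjusted p = 0.0380) and AT5G01050 (455 reads in arf10/16-labelled roots and 214 in wild type; adjusted p = 0.0281). Chitinases, which cut fungal wall chitin, were higher in 5 of 20 measured cases and lower in 1, with AT4G01700 at 1005 reads in arf10/16-labelled roots and 416 in wild type. Efflux proteins of the MATE type were higher in 5 of 26 and lower in 1, led by AT5G52050 with 123 reads in arf10/16-labelled roots and 15 in wild type, 8.36-fold (4.88 to 15.4) higher.

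Glutathione transferases, which join glutathione to reactive compounds, split by member, with 7 of 38 measured higher and 2 lower. GSTF7, whose close copy GSTF6 may share its reads, had 2081 reads in arf10/16-labelled roots and 385 in wild type, 5.51-fold (4.94 to 6.16) higher. With 10 µM Al it had 1083 reads in arf10/16-labelled roots and 985 in wild type. GSTU20 had 75 reads in arf10/16-labelled roots and 217 in wild type, 2.84-fold (2.17 to 3.74) lower, and fell in the additive model (-1.11 ± 0.23, log2 and SE; adjusted p = 0.0472). Wall families differed among themselves. Of 21 measured xyloglucan endotransglucosylases 2 were higher and 5 lower. TCH4, a touch-induced member, had 532 reads in arf10/16-labelled roots and 227 in wild type, 2.39-fold (2.04 to 2.80) higher, while XTH31 had 221 reads in arf10/16-labelled roots and 551 in wild type, 2.44-fold (2.09 to 2.87) lower. Extensins had 3 of 34 higher and 1 lower, expansins 1 of 15 higher and 1 lower, and the cellulose synthase family 0 of 18 past the rule. Arabinogalactan proteins had 0 of 36 higher and 4 lower, with a median log2 ratio of -0.45. Outside the wall, pentatricopeptide repeat proteins, which process organellar transcripts, had 2 of 132 higher and 10 lower, with a median of -0.31.

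Of 9 measured genes of aluminium tolerance, 2 were higher (22.2% against 7.09% of all measured loci) and 1 lower (11.1% against 4.54%) in arf10/16-labelled roots without Al. WRKY46, a factor known to repress the malate transporter gene ALMT1, had 143 reads in arf10/16-labelled roots and 50 in wild type, 2.92-fold (2.1 to 4.11) higher, and rose in the additive model (adjusted p = 0.0257). ALS3, a membrane protein gene of Al tolerance, had 6 reads in arf10/16-labelled roots and 20 in wild type, 3.27-fold (1.27 to 9.95) lower, and ALMT1 itself fell under the filter with 1 read in arf10/16-labelled roots and 8 in wild type. Among 15 measured monolignol genes, which make lignin precursors, 1 was higher and 1 lower. These shares of 6.67% each lie near the 7.09% higher and 4.54% lower of all measured loci. The reductase gene CCR2 was higher, with 359 reads in arf10/16-labelled roots and 82 in wild type, 4.46-fold (3.5 to 5.75). FAH1, of sinapate synthesis, was lower, with 64 reads in arf10/16-labelled roots and 159 in wild type, 2.44-fold (1.81 to 3.31). PAL1, of the first step, had 2819 reads in arf10/16-labelled roots and 2886 in wild type. Of 8 measured flavonoid genes 0 were higher and 2 lower (25.0% against 4.54% of all measured loci). The lower ones were TT7 (109 reads in arf10/16-labelled roots and 224 in wild type) and CHIL (12 reads in arf10/16-labelled roots and 40 in wild type). Casparian strip genes had 0 of 8 past the rule and suberin genes 1 of 17, which was higher (5.88% against 7.09% of all measured loci). DIN2, a beta-glucosidase gene induced by sugar starvation, had 107 reads in arf10/16-labelled roots and 34 in wild type, 3.21-fold (2.16 to 4.87) higher, and with 10 µM Al it had 7169 reads in arf10/16-labelled roots and 3696 in wild type.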
